A study of Mus musculus with 24 samples.

Results

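The MiT/TFE group of lysosomal regulators, 6 genes, was followed across the cerebellum and hippocampus of mice that lack Npc1. It holds the 4 transcription factors Tfeb, Tfe3, Mitf and Tfec, their regulator Flcn, and Gpnmb, a target gene of the family. They were taken by gene symbol from the deposited count files, where each of the 6 symbols matched 1 of the 57126 gene identifiers. Gpnmb was picked for its high level in Npc1-/- brain, so its values in Npc1-/- against Npc1+/+ libraries are given as a description. The remaining members were picked by pathway.

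TFEB, TFE3, MITF and TFEC are basic helix-loop-helix leucine zipper proteins that bind DNA as dimers. Their preferred sites are E-boxes, and the extended form found at lysosomal genes is called the CLEAR element. When amino acids are plentiful, the kinase mTORC1 phosphorylates these factors on the lysosome and 14-3-3 proteins hold them in the cytosol. Folliculin, the product of Flcn, works with FNIP1 or FNIP2 as a GTPase-activating protein for RagC and RagD and is needed for that phosphorylation. On lysosomal stress the factors enter the nucleus and switch on hydrolases, proton pump subunits and autophagy genes. GPNMB is a transmembrane glycoprotein of melanosomes and of phagocyte lysosomes, and it accumulates in lipid-laden macrophages. The counts measure RNA, and neither the phosphorylation nor the localisation of the factors was measured.

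Npc1 encodes a lysosomal membrane protein that exports cholesterol, and its loss causes Niemann-Pick disease type C1. The mice were of the BALB/cNctr-Npc1m1N/J strain. There were 4 Npc1-/- mice given dipyridamole (DIP), 4 Npc1-/- mice given vehicle (Veh) and 4 Npc1+/+ mice given vehicle, and each mouse gave a cerebellar and a hippocampal library. Dipyridamole, an inhibitor of nucleoside uptake and of phosphodiesterases, was injected intraperitoneally at 30 mg/kg on 5 days a week from postnatal day 28, and the vehicle was PBS with PEG400. No Npc1+/+ mouse received dipyridamole. The Npc1-/- mice of both treatments were of both sexes and 63 days old, whereas every Npc1+/+ mouse was female and aged 65 days. Sex was therefore a covariate of each fit, and age cannot be told apart from genotype.

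The shallowest library held 1833609 counts and the deepest 11590081, around a median of 7979867. Npc1 itself averaged 20.1, 28.9 and 102 CPM in Npc1-/- DIP, Npc1-/- Veh and Npc1+/+ Veh cerebellum, and 18.6, 19.8 and 77.98 CPM in the same groups of hippocampus. All 11 cerebellar markers were higher, and all 11 hippocampal markers lower, in Npc1+/+ cerebellum than in Npc1+/+ hippocampus. Of all genes 21.3% were higher and 21.8% lower in that contrast. Replicate 2 of the Npc1-/- Veh mice stood apart in depth, with 1833609 counts in cerebellum and 3844971 in hippocampus. The hippocampal library of DIP replicate 4 stood apart in its summed hippocampal markers, at 1024 CPM against 2211 to 2614 CPM in the other DIP libraries. The main results were also computed without these libraries.

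Tfec, Gpnmb and Mitf lie on mouse chromosome 6 (GRCm39). Tfec (ENSMUSG00000029553.11) spans 16833372 to 16898440 on the minus strand, Gpnmb (ENSMUSG00000029816.11) spans 49013480 to 49047863 on the plus strand, and Mitf (ENSMUSG00000035158.16) spans 97784013 to 97998310 on the plus strand. Flcn (ENSMUSG00000032633.13) lies on chromosome 11 from 59682234 to 59700842 on the minus strand. Tfeb (ENSMUSG00000023990.19) lies on chromosome 17 from 48047955 to 48103344, and Tfe3 (ENSMUSG00000000134.18) on chromosome X from 7628799 to 7641441, both on the plus strand.

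The sequence before the start of Gpnmb is shown because Gpnmb is the member whose level differed most between groups. It is the RefSeq GRCm38.p6 promoter window chr6:49036268-49036547, plus strand, whose last 30 bases follow the start. Capitals mark TGACTCA, the consensus site of AP-1 factors, which begins at base 9 after the start:
Gpnmb promoter: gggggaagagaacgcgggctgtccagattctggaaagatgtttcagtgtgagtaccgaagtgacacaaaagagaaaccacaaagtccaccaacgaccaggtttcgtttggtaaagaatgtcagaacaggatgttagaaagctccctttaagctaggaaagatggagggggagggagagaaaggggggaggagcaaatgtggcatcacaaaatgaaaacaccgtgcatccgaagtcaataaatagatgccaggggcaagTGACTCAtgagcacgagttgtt
The E-boxes CACGTG and CATGTG, searched on both strands, occurred in none of the 11 promoter windows of the 6 members, each of which covers 250 bases before and 50 bases after a start. Over all 32851 mouse windows of that length, 7.15% held CACGTG, 14.2% held CATGTG and 5.2% held TGACTCA. The TGACTCA motif was looked for after the sequence had been seen. A match is a string of letters and not a measured binding site, and the absence of one applies to these windows only.

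Further into the gene, 73 bases after that start and 24 bases before the start of the coding transcript Gpnmb-201 in GENCODE vM21, the other strand of CATGTG occurred. The search was added after the window was found to lack an E-box, and it covered the first exon of each annotated Gpnmb transcript. Matches occurred in that of the retained-intron transcript Gpnmb-205, which is 1832 bases long. The search also found CACGTG there once, 1534 bases after the start, and a stretch of that length offers more chance matches than a 300-base window. The nearer site is shown, with the E-box in capitals, as chr6:49036582-49036605 (GRCm38, plus strand):
Gpnmb downstream E-box: ttaaaacatCACATGatctccctc
For comparison, CACGTG was present in 15 of 40 windows (37.5%) of the list of CLEAR-type lysosomal targets, a list drawn from genes known as targets of these factors. Of the 13 targets called higher in Npc1-/- Veh cerebellum 9 have a window, and the search found CACGTG in the windows of 3 of these 9. That search left out the windows of a chromosome, so absence from the rest of the 9 is not claimed. The 3 targets with a site found are shown with CACGTG in capitals. They are Ctsd at chr7:142388057-142388077 on the minus strand, Ctsa at chr2:164833751-164833776 on the plus strand and Naglu at chr11:101070011-101070036 on the plus strand (GRCm38.p6):
Ctsd: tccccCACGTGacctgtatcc
Ctsa: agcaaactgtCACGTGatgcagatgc
Naglu: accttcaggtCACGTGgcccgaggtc

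Levels are given in CPM, a count relative to the library total, computed after TMM scaling, which corrects those totals for composition. The assay reads 1 short amplicon per gene, so a level is compared between libraries of the same gene and never between genes. Values run from replicate 1 to replicate 4.

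Gpnmb was almost silent in Npc1+/+ cerebellum and was detected in every Npc1-/- cerebellum, on 247 to 616 counts per library. It stood at 62.7, 68.4, 65.6 and 61.0 CPM in Npc1-/- DIP cerebellum, at 73.4, 127, 57.5 and 53.9 CPM in Npc1-/- Veh cerebellum, and at 0.347, 0.3996, 0.513 and 0.121 CPM in Npc1+/+ Veh cerebellum. The Npc1+/+ values rest on 4, 4, 4 and 1 counts, and no Npc1-/- library came near them. The 127 CPM belongs to the shallowest library, on 247 counts.

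In hippocampus Gpnmb was also higher in Npc1-/- mice, at a far lower level than in their cerebella. It stood at 5.71, 5.56, 10.5 and 11.1 CPM in Npc1-/- DIP hippocampus, at 6.49, 7.14, 11.8 and 5.56 CPM in Npc1-/- Veh hippocampus, and at 0.452, 1.52, 2.01 and 0.755 CPM in Npc1+/+ Veh hippocampus. All 8 Npc1-/- libraries lay above all 4 Npc1+/+ libraries, and the Npc1-/- groups overlapped.

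Tfeb, the family member most studied in lysosome formation, held a steady level in cerebellum. It stood at 38.9, 35.5, 32.8 and 30.7 CPM in Npc1-/- DIP cerebellum, at 28.5, 34.4, 36.2 and 28.3 CPM in Npc1-/- Veh cerebellum, and at 34.03, 25.4, 34.2 and 39.0 CPM in Npc1+/+ Veh cerebellum. All 3 groups overlapped. In hippocampus it stood at 14.0, 14.6, 14.9 and 11.8 CPM in Npc1-/- DIP mice, at 10.1, 9.61, 12.2 and 11.4 CPM in Npc1-/- Veh mice, and at 16.7, 14.4, 20.5 and 17.4 CPM in Npc1+/+ Veh mice. The Npc1-/- Veh hippocampi were all below the Npc1+/+ hippocampi, and the DIP hippocampi overlapped both groups.

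Tfe3, which shares many targets with Tfeb, varied most within the Npc1-/- Veh group. It stood at 22.0, 20.4, 17.2 and 12.7 CPM in Npc1-/- DIP cerebellum, at 15.97, 42.1, 13.5 and 13.8 CPM in Npc1-/- Veh cerebellum, and at 14.5, 14.9, 17.6 and 16.3 CPM in Npc1+/+ Veh cerebellum. In hippocampus it stood at 16.3, 12.3, 13.6 and 12.8 CPM in Npc1-/- DIP mice, at 11.4, 32.1, 15.3 and 16.2 CPM in Npc1-/- Veh mice, and at 22.3, 9.37, 13.4 and 10.4 CPM in Npc1+/+ Veh mice. The high value of the Npc1-/- Veh group came from replicate 2 in both tissues, the mouse with the shallowest libraries, and all groups overlapped within each tissue.

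Mitf, the regulator of pigment cells and osteoclasts, was low in every library, on 7 to 66 counts. It stood at 4.72, 2.65, 4.72 and 4.40 CPM in Npc1-/- DIP cerebellum, at 3.46, 3.60, 4.49 and 5.17 CPM in Npc1-/- Veh cerebellum, and at 5.56, 4.596, 5.77 and 7.99 CPM in Npc1+/+ Veh cerebellum. In hippocampus it stood at 2.90, 2.09, 1.503 and 1.76 CPM in Npc1-/- DIP mice, at 2.85, 4.94, 2.22 and 3.28 CPM in Npc1-/- Veh mice, and at 3.88, 3.87, 5.77 and 4.98 CPM in Npc1+/+ Veh mice. The DIP hippocampi were all below the Npc1+/+ hippocampi, the Npc1-/- Veh hippocampi overlapped both groups, and the cerebellar groups all overlapped.

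Tfec, whose expression is concentrated in myeloid cells, was at the edge of detection. Its libraries held 0 to 18 counts, and 3 counts correspond to 0.322 to 0.467 CPM in DIP cerebellum and to 0.358 to 1.54 CPM in Npc1-/- Veh cerebellum. The group means were 0.835, 0.591 and 0.214 CPM in Npc1-/- DIP, Npc1-/- Veh and Npc1+/+ Veh cerebellum, and 0.776, 0.356 and 0.263 CPM in the same groups of hippocampus. Tfec did not pass the filter on low counts, so the main fits hold no test of it. With that filter left out it was tested and was called in no dipyridamole or genotype comparison.

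Flcn was the member with the most counts, 254 to 1488 per library. It stood at 151, 130, 130 and 133 CPM in Npc1-/- DIP cerebellum, at 129, 130, 147 and 115 CPM in Npc1-/- Veh cerebellum, and at 129, 134, 115 and 127 CPM in Npc1+/+ Veh cerebellum. In hippocampus it stood at 91.8, 106, 92.7 and 114 CPM in Npc1-/- DIP mice, at 97.9, 99.7, 97.1 and 105 CPM in Npc1-/- Veh mice, and at 85.0, 88.8, 85.2 and 76.7 CPM in Npc1+/+ Veh mice. All 8 Npc1-/- hippocampi, at 91.8 CPM or more, lay above all 4 Npc1+/+ hippocampi, at 88.8 CPM or less, while the cerebellar groups overlapped.

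**Figure D1:**
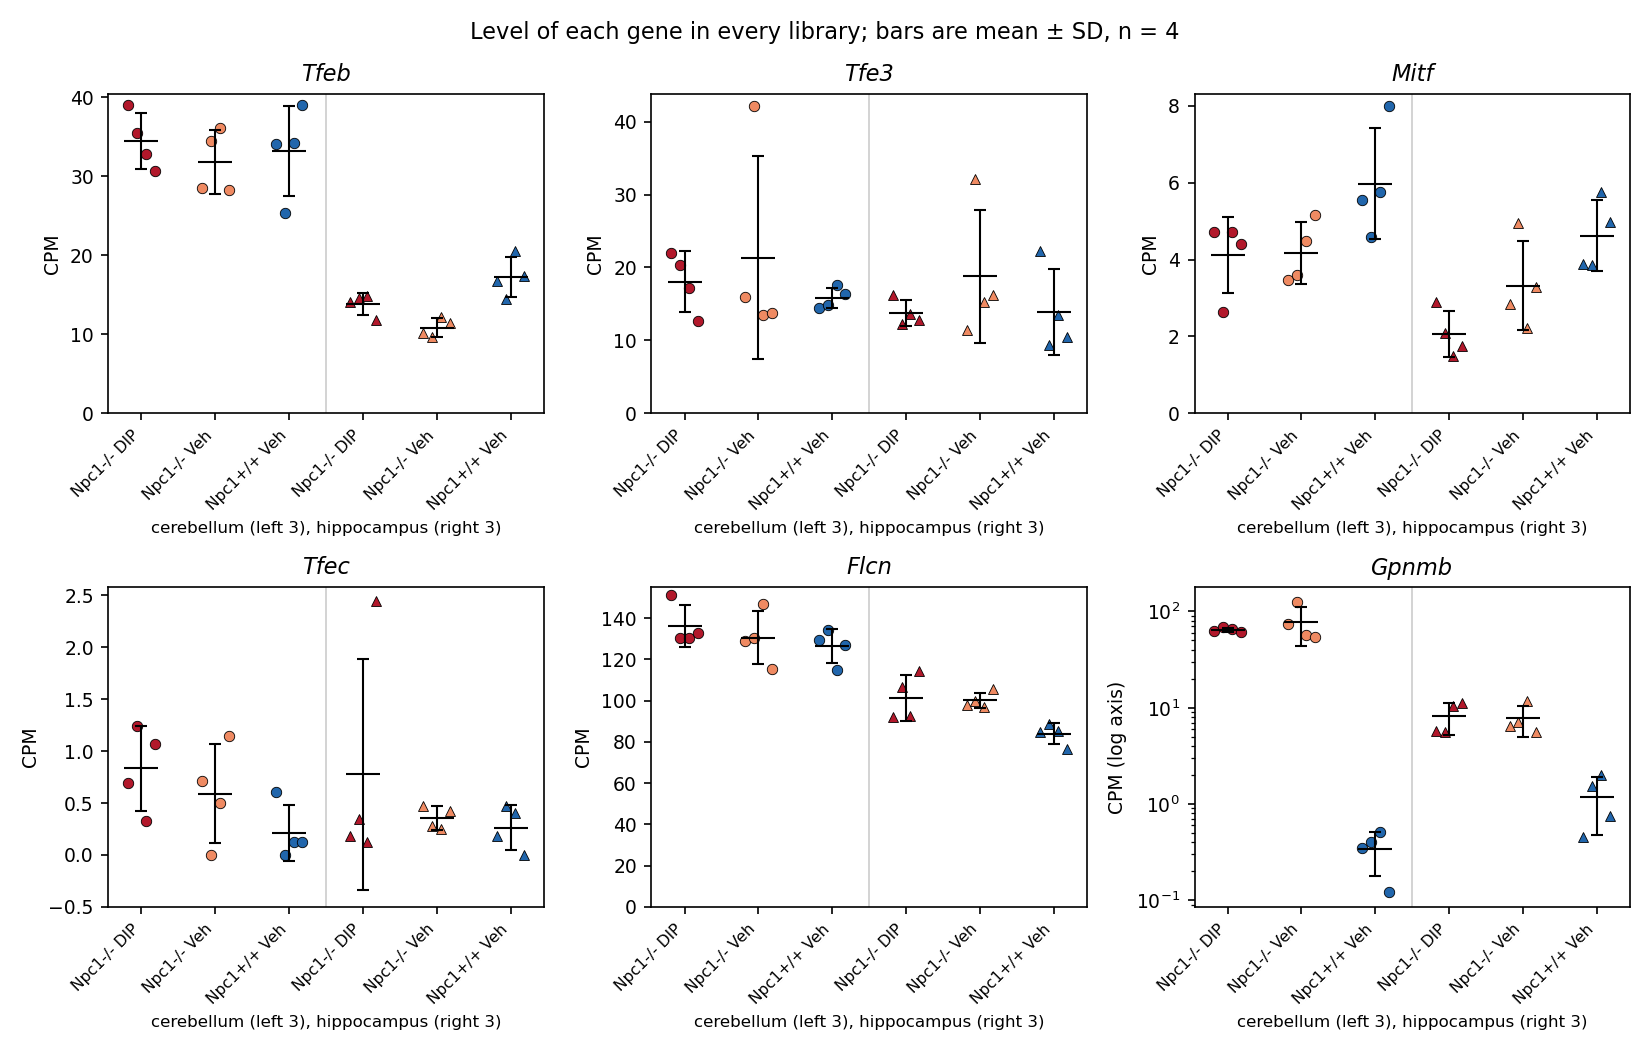
CPM of the 6 genes in each of the 24 libraries (points: circles cerebellum, triangles hippocampus), by group, with the group mean and SD as bars (n = 4); the Gpnmb axis is logarithmic and the others are linear. Gpnmb averages 64.4 and 77.9 CPM in Npc1-/- DIP and Npc1-/- Veh cerebellum against 0.345 CPM in Npc1+/+ Veh cerebellum, while Tfeb, Tfe3 and Flcn overlap between the 3 cerebellar groups.

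The first comparison asked whether dipyridamole altered these genes in Npc1-/- brain. In cerebellum none of the 5 genes tested passed between DIP and vehicle, and neither did any gene of the whole table. The quasi-likelihood test of edgeR put 0% of 12921 cerebellar genes past an adjusted p of 0.05, with 300 at an unadjusted p under 0.05 and 0 by DESeq2. The unadjusted p passed for none of the 5 members.

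Gpnmb averaged 64.4 ± 3.26 CPM in DIP cerebellum and 77.9 ± 33.7 CPM in Npc1-/- Veh cerebellum (SD, n = 4 each). Its log2 fold change, DIP over vehicle, was -0.18 with a 95% interval of -0.63 to 0.28, and 0.08 without Npc1-/- Veh replicate 2. Tfeb averaged 34.5 ± 3.56 CPM in DIP cerebellum and 31.8 ± 4.05 CPM in Npc1-/- Veh cerebellum, with a log2 fold change of 0.12 and an interval of -0.23 to 0.46. Flcn had the narrowest interval, with a log2 fold change of 0.05 between -0.22 and 0.31. Mitf (-0.09, interval -0.67 to 0.49) and Tfe3 (0.02, interval -0.55 to 0.58) had wider ones. Without Npc1-/- Veh replicate 2, Tfe3 stood at 0.36 with an adjusted p of 0.742 by edgeR.

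In hippocampus the dipyridamole comparison again called no gene, 0% of 12740, with 93 at an unadjusted p under 0.05 and 0 by DESeq2. Tfeb averaged 13.8 ± 1.40 CPM in DIP hippocampus and 10.8 ± 1.18 CPM in Npc1-/- Veh hippocampus, a log2 fold change of 0.33 with an interval of -0.05 to 0.71. Mitf averaged 2.06 ± 0.61 CPM in DIP hippocampus and 3.32 ± 1.17 CPM in Npc1-/- Veh hippocampus, a log2 fold change of -0.50 with an interval of -1.16 to 0.16. Gpnmb averaged 8.23 ± 3.01 CPM in DIP hippocampus and 7.75 ± 2.79 CPM in Npc1-/- Veh hippocampus, with a fitted log2 fold change of -0.16 and an interval of -0.82 to 0.50. The sign is opposite to that of the group means, and without the sex covariate the value was 0.066. Tfe3 stood at -0.37 (interval -1.08 to 0.34), and at -0.027 without the libraries in doubt. Flcn stood at 0.01 (interval -0.26 to 0.27). All 5 adjusted p-values of edgeR's test were 1.00 in each tissue. The difference of the dipyridamole effect between the tissues also called no gene, 0% of 13436, with 222 at an unadjusted p under 0.05 and 0 by DESeq2.

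The counts of Gpnmb summed over the 4 libraries of a group give ratios whose intervals cover counting error only. They do not bound the difference between groups of mice. DIP cerebellum over Npc1-/- Veh cerebellum gave a ratio of 0.955 (95% interval 0.896 to 1.02, exact binomial), on 2149 and 1699 counts. The same ratio in hippocampus was 0.985 (interval 0.819 to 1.19). Amplicon reads lack molecular identifiers and so are not independent, and these intervals leave out the spread between mice.

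The genotype comparison set Npc1-/- Veh against Npc1+/+ Veh mice, and its values describe Gpnmb, which was picked for them. In cerebellum Gpnmb averaged 77.9 ± 33.7 CPM in Npc1-/- Veh mice and 0.345 ± 0.165 CPM in Npc1+/+ Veh mice (SD, n = 4 each), a fitted log2 fold change of 7.54 ± 0.38 (SE). Its summed counts were 1699 in Npc1-/- Veh and 13 in Npc1+/+ Veh libraries, a ratio of 194 with a counting interval of 113 to 365. The log2 fold changes of the other members were 0.10 ± 0.15 for Flcn, -0.06 ± 0.20 for Tfeb, -0.13 ± 0.33 for Tfe3 and -0.32 ± 0.33 for Mitf (SE). For Tfe3 the sign is opposite to that of the group means, 21.3 CPM in Npc1-/- Veh and 15.8 CPM in Npc1+/+ Veh mice, since the fit adjusts for sex. Of the 5 tested members 1 passed the threshold, where 9.95% of all genes did, 5.91% higher and 4.04% lower.

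In hippocampus Gpnmb averaged 7.75 ± 2.79 CPM in Npc1-/- Veh mice and 1.19 ± 0.71 CPM in Npc1+/+ Veh mice, a fitted log2 fold change of 3.35 ± 0.40 (SE) and a ratio of summed counts of 7.14 (counting interval 5.03 to 10.4). Tfeb averaged 10.8 ± 1.18 CPM in Npc1-/- Veh mice and 17.2 ± 2.52 CPM in Npc1+/+ Veh mice, a log2 fold change of -0.63 with a 95% interval of -1.10 to -0.17. Mitf averaged 3.32 ± 1.17 CPM in Npc1-/- Veh mice and 4.62 ± 0.92 CPM in Npc1+/+ Veh mice, with a log2 fold change of -1.01 between -1.83 and -0.20. The ratio of group means was 0.718 for Mitf and 6.54 for Gpnmb, and both fitted values are larger in size than these ratios give. The fit adjusts for sex, and the sex term rests on Npc1-/- mice, as every Npc1+/+ mouse was female. Over 18 alternative fits Mitf ran from -1.20 to -0.51 and Gpnmb from 2.73 to 3.72. Flcn averaged 100.03 ± 3.79 CPM in Npc1-/- Veh mice and 83.9 ± 5.14 CPM in Npc1+/+ Veh mice, with a log2 fold change of 0.26 between -0.06 and 0.59. Tfe3 averaged 18.8 ± 9.15 CPM in Npc1-/- Veh mice and 13.9 ± 5.87 CPM in Npc1+/+ Veh mice, with a log2 fold change of 0.24 ± 0.41 (SE), and of 0.054 without the libraries in doubt. Of the 5 tested members 1, Gpnmb, passed, where 1.62% of all genes did, 1.02% higher and 0.597% lower. Tfeb passed only when sex was left out of the fit, at -0.66 with an adjusted p of 0.0377.

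The treated Npc1-/- mice were also set against the Npc1+/+ mice, which are the same controls as in the genotype comparison. Gpnmb lay above Npc1+/+ Veh by 7.37 ± 0.36 (log2, SE) in DIP cerebellum beside 7.54 ± 0.38 in Npc1-/- Veh cerebellum, and 3.19 ± 0.37 in DIP hippocampus beside 3.35 ± 0.40 in Npc1-/- Veh hippocampus. The share of all genes that passed was 14.4% in cerebellum (8.13% higher, 6.29% lower), where 1 of 5 members passed, and 2.68% in hippocampus (1.59% higher, 1.09% lower), where 2 of 5 did.

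The second member in hippocampus was Mitf, which fell to 2.06 ± 0.61 CPM in DIP mice, against 4.62 ± 0.92 CPM in Npc1+/+ Veh mice (SD, n = 4 each). Its log2 fold change was -1.52 ± 0.34 (SE), lower in 4 of 4 DIP libraries, and an adjusted p of 0.0304 (edgeR). The call was lost in 10 of 18 alternative fits, with adjusted p from 0.00534 to 0.128, and was lost without the libraries in doubt (-1.52, adjusted p 0.128). Tfeb in DIP hippocampus stood at -0.30 ± 0.19 and Flcn at 0.27 ± 0.13 against Npc1+/+ Veh (log2, SE), neither past the threshold.

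**Figure D2:**
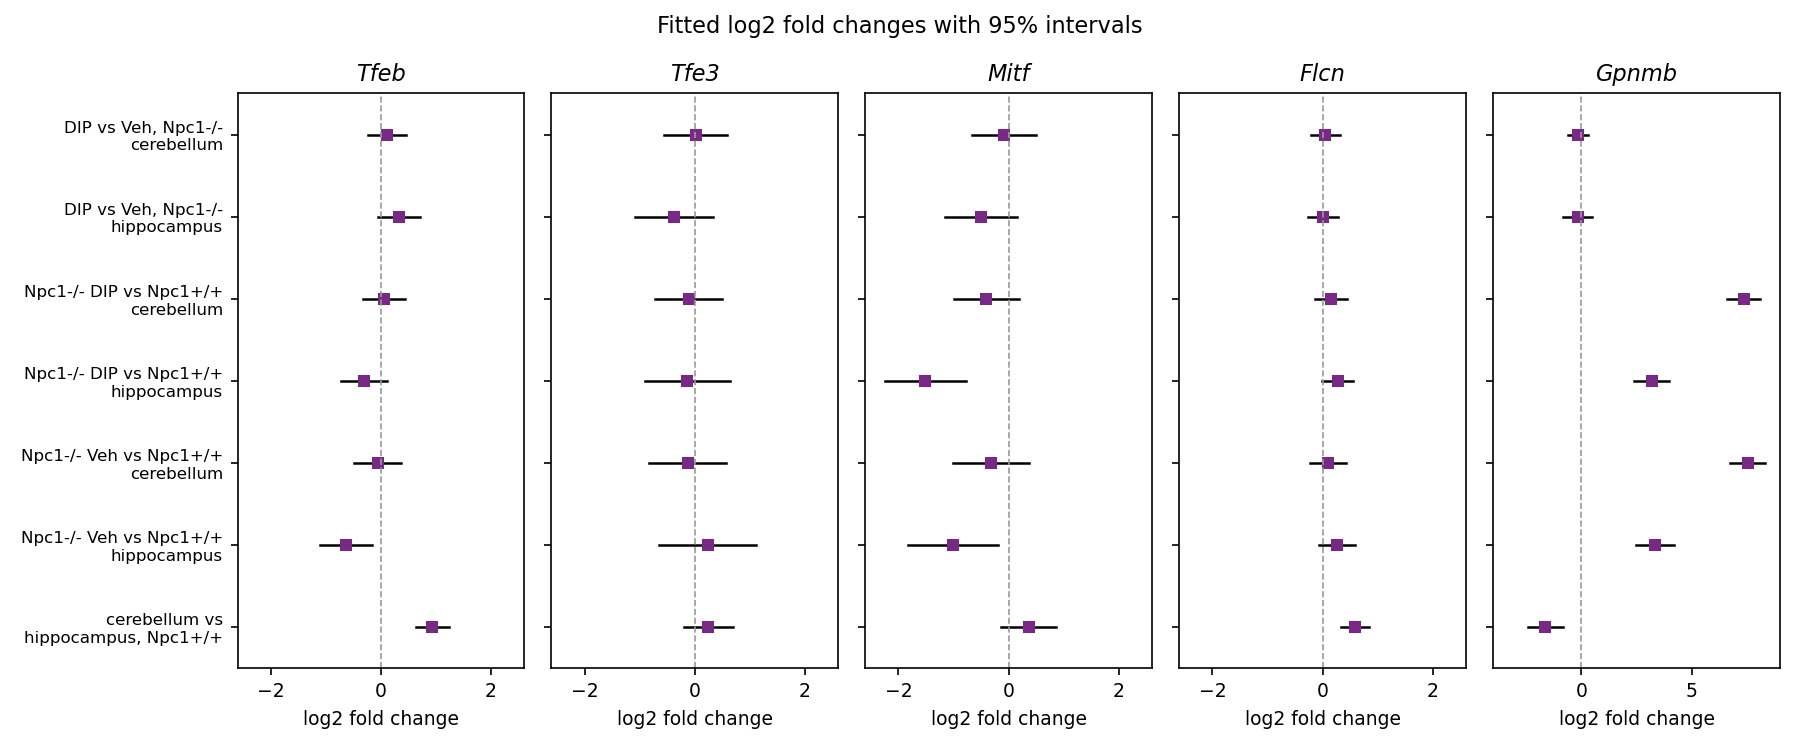
Fitted log2 fold changes (horizontal axis) of the 5 tested genes in 7 comparisons (rows), with 95% intervals as lines; the Gpnmb axis has a wider range. Every dipyridamole interval crosses 0, while Gpnmb lies at 7.37 and 7.54 for Npc1-/- DIP and Npc1-/- Veh over Npc1+/+ cerebellum.

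The tissues were compared within mice, first in the Npc1+/+ group. Gpnmb was picked with its genotype differences in both tissues known, and those differences use the same Npc1+/+ libraries. Its values in this contrast are therefore a description too. Tfeb and Flcn were higher, and Gpnmb lower, in Npc1+/+ cerebellum than in Npc1+/+ hippocampus. Of the 5 tested members 3 passed, 2 higher and 1 lower, where 43.1% of all genes passed, 21.3% higher and 21.8% lower in cerebellum. The 1 lower was Gpnmb, and its place in that count is part of the description. Tfeb averaged 33.2 ± 5.67 CPM in cerebellum and 17.2 ± 2.52 CPM in hippocampus (SD, n = 4 each), a log2 fold change of 0.94 ± 0.14 (SE, adjusted p 3.70e-05, edgeR). Flcn averaged 126 ± 8.29 CPM in cerebellum and 83.9 ± 5.14 CPM in hippocampus, a log2 fold change of 0.59 ± 0.12 (adjusted p 0.000657, edgeR). Gpnmb averaged 0.345 ± 0.165 CPM in cerebellum and 1.19 ± 0.71 CPM in hippocampus, a log2 fold change of -1.64 ± 0.38 on 13 and 38 counts. Mitf (0.36, interval -0.14 to 0.87) and Tfe3 (0.25, interval -0.19 to 0.69) did not pass. Tfe3 was higher in cerebellum with an adjusted p of 0.0239 once Npc1+/+ replicate 1, whose hippocampus held 22.3 CPM, was left out.

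Within single mice Tfeb was higher in cerebellum than in hippocampus in 12 of 12 mice, with ratios from 1.67 to 3.58. Flcn was higher in cerebellum in 12 of 12 mice, with ratios from 1.09 to 1.66. Gpnmb was higher in cerebellum in 8 of 8 Npc1-/- mice, with ratios from 5.48 to 12.3 in DIP mice and from 4.86 to 17.8 in Npc1-/- Veh mice, and in 0 of 4 Npc1+/+ mice, where ratios ran from 0.160 to 0.769. The order of the tissues was thus opposite for Gpnmb in Npc1-/- and in Npc1+/+ mice. Mitf was higher in cerebellum in 10 of 12 mice, and Tfe3 and Tfec each in 8 of 12.

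The genotype difference of Gpnmb was larger in cerebellum than in hippocampus by 4.06 ± 0.45 (log2, SE), a result known when the gene was picked. It was the 1 member of 5 past the threshold in this comparison, where 1.15% of all genes were, 0.543% higher and 0.61% lower. For Tfeb the cerebellar minus hippocampal difference was 0.56 (interval 0.01 to 1.11, adjusted p 0.526, edgeR), and for Mitf 0.71 (interval -0.26 to 1.69). Neither passed.

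**Figure D3:**
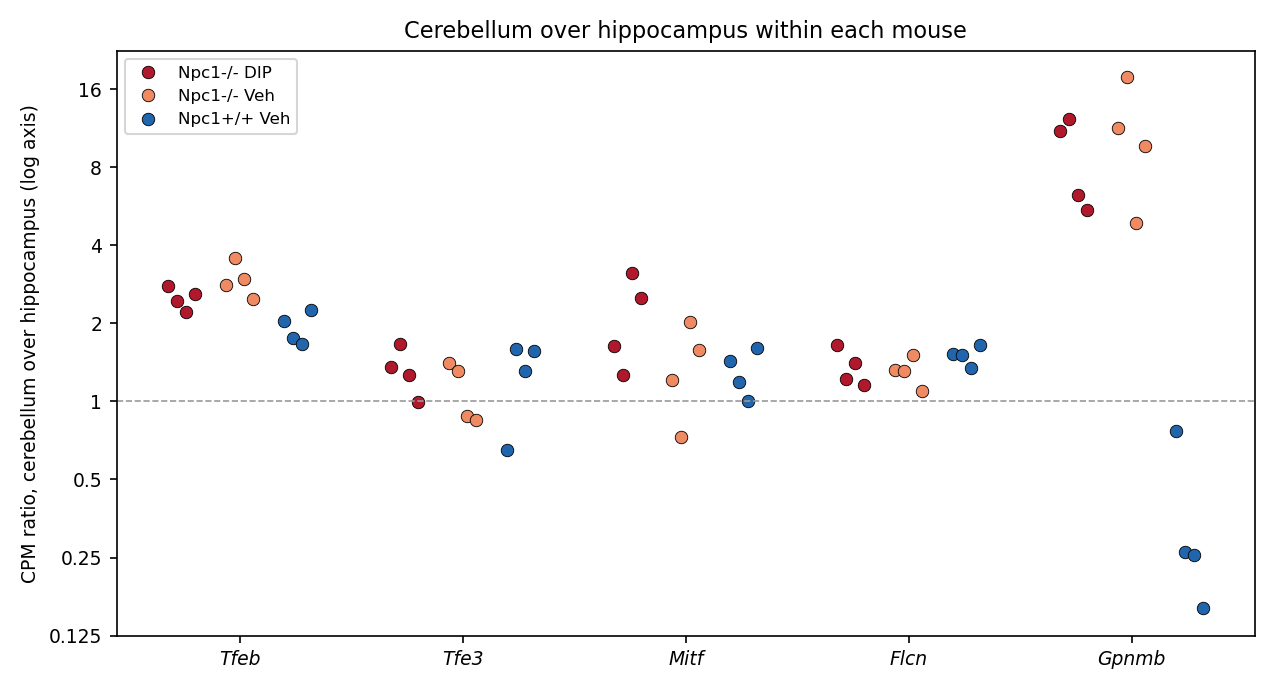
Ratio of cerebellar to hippocampal CPM within each of the 12 mice (1 point per mouse, logarithmic axis) for 5 genes, by group. Gpnmb lies above 1 in all 8 Npc1-/- mice, at 4.86 to 17.8, and below 1 in all 4 Npc1+/+ mice, at 0.160 to 0.769, while Tfeb and Flcn lie above 1 in all 12 mice.

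Microglial and macrophage markers moved with Gpnmb. The summed level of 16 such markers was 636 to 761 CPM in DIP cerebellum, 646 to 731 CPM in Npc1-/- Veh cerebellum and 105 to 119 CPM in Npc1+/+ Veh cerebellum. In hippocampus it was 666 to 709 CPM in DIP mice, 596 to 801 CPM in Npc1-/- Veh mice and 297 to 359 CPM in Npc1+/+ Veh mice. Of the 14 tested markers 12 were higher in Npc1-/- Veh cerebellum, where 5.91% of all genes were. In Npc1-/- Veh hippocampus 7 were higher, where 1.02% of all genes were. Itgam was at 0 in every group. In whole tissue, more cells of a type and more RNA per cell cannot be told apart.

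Gpnmb also differed per unit of these markers. Per 1000 CPM of summed microglial markers its median was 96.5 CPM in DIP cerebellum, 96.2 CPM in Npc1-/- Veh cerebellum and 3.41 CPM in Npc1+/+ Veh cerebellum. In hippocampus the medians were 11.9 CPM in DIP mice, 10.9 CPM in Npc1-/- Veh mice and 3.58 CPM in Npc1+/+ Veh mice. The summed markers covered similar ranges in Npc1-/- cerebellum and Npc1-/- hippocampus, and Gpnmb did not. The genotype difference of these markers was also larger in cerebellum for 7 of 14, with a median of 1.38 (log2), where 0.543% of all genes were. None of the 14 passed the other way. In Npc1+/+ mice 12 of the 14 were lower in cerebellum than in hippocampus, where 21.8% of all genes were. The part of microglial number in the Gpnmb difference was not tested.

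**Figure D4:**
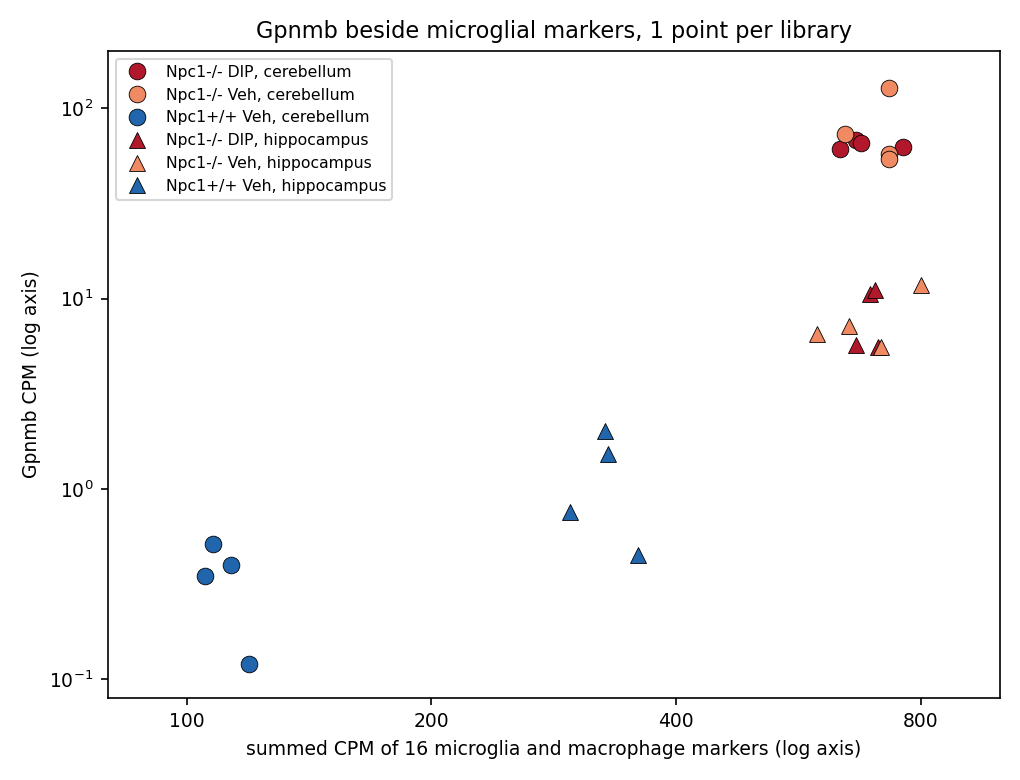
Gpnmb CPM (vertical, logarithmic) beside the summed CPM of 16 microglia and macrophage markers (horizontal, logarithmic), 1 point per library, circles for cerebellum and triangles for hippocampus. At a similar marker sum, 596 to 801 CPM, the 8 Npc1-/- cerebella lie at 53.9 to 127 CPM of Gpnmb and the 8 Npc1-/- hippocampi at 5.56 to 11.8 CPM.

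Oligodendrocyte markers were lower in Npc1-/- than in Npc1+/+ hippocampus, as were the group means of Tfeb and Mitf. Neither gene passed for genotype there in the main fit. The sum of 8 such markers was 562 to 1624 CPM in DIP hippocampus and 1105 to 1634 CPM in Npc1-/- Veh hippocampus. It was 4511 to 5695 CPM in Npc1+/+ Veh hippocampus. In Npc1-/- Veh hippocampus 8 of 8 were lower, where 0.597% of all genes were. For DIP over Npc1-/- Veh hippocampus 0 of the 8 markers had a fitted value above 0, with a median of -0.24 (log2). Tfeb averaged 13.8 CPM in DIP and 10.8 CPM in Npc1-/- Veh hippocampus, and Mitf 2.06 and 3.32 CPM. In cerebellum the sum was 8478 to 9982 CPM in DIP, 6420 to 11199 CPM in Npc1-/- Veh and 6015 to 7160 CPM in Npc1+/+ Veh mice. The single markers did not follow that sum. Of the 8, 1 had a fitted value above 0 in Npc1-/- Veh over Npc1+/+ Veh cerebellum, with a median of -0.40 (log2). There 1 passed as lower and none as higher, where 4.04% and 5.91% of all genes did. In DIP over Npc1+/+ Veh cerebellum 4 were lower and 1 higher, with a median of -0.49, where 6.29% and 8.13% of all genes were. Choroid plexus markers varied from 111 to 5170 CPM between DIP hippocampi, from 169 to 8155 CPM between Npc1-/- Veh hippocampi and from 82.1 to 3608 CPM between Npc1+/+ Veh hippocampi. Markers of pigment cells, the classical site of Mitf action, summed to at most 5.07 CPM in any library and Tyr was at 0 in every group. The part of these cell types in the Tfeb and Mitf values was not tested.

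The genes that the MiT/TFE factors are known to switch on were followed as a list of 46 CLEAR-type lysosomal and autophagy targets, 45 of them in the files and 44 tested. Mcoln1, Rragd and Clcn7 each stand on this list and on 1 of those that follow. In Npc1-/- Veh cerebellum 13 of 44 rose and none fell, where 5.91% of all genes rose, and the list's median log2 fold change was 0.32 against 0.01 over all genes. Grn, the precursor of granulins, averaged 177 ± 19.6 CPM in Npc1-/- Veh cerebellum and 58.5 ± 3.32 CPM in Npc1+/+ Veh cerebellum (SD, n = 4 each), a log2 fold change of 1.45 ± 0.15 (SE). Ctsd, the lysosomal protease cathepsin D, rose by 1.92 ± 0.20, and Hexa, a lysosomal hydrolase of ganglioside breakdown, by 1.29 ± 0.20. Others that rose were Cd63, Ctsa, Naglu, Npc2, Galns, Gusb, Lamp2 and Ctsb. Without the library in doubt 14 rose.

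In Npc1-/- Veh hippocampus 1 of 44 CLEAR-type targets rose, Grn, by 1.01 ± 0.17 (log2, SE), and none fell, where 1.02% of all genes rose. DESeq2 called 7 of the 44 higher there, the fit with the replicate block 0 of 44, and the list's median was 0.23. No target passed in the difference between the tissues, where 6 passed at an unadjusted p under 0.05 and DESeq2 called 2. Ctsd stood at 0.98 ± 0.25 there (log2, SE, adjusted p 0.0696, edgeR). In DIP against Npc1+/+ Veh mice, which share those controls, 15 of 44 rose in cerebellum and 3 of 44, Grn and Ctsa among them, in hippocampus, where 8.13% and 1.59% of all genes rose. Without the libraries in doubt the hippocampal count was 1.

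For dipyridamole none of the 44 targets passed in either tissue, with 0 at an unadjusted p under 0.05 in each and 0 by DESeq2. The smallest p in cerebellum belonged to Naglu, a heparan sulphate hydrolase, at 0.32 (95% interval -0.07 to 0.70), and in hippocampus to Scpep1, a carboxypeptidase, at -0.34 (interval -0.84 to 0.16). The list's median log2 fold change, DIP over vehicle, was -0.01 in cerebellum and -0.02 in hippocampus. Markers of several cell types moved beside the cerebellar targets. Besides the microglial markers, 3 of 6 astrocyte markers were higher in Npc1-/- Veh than in Npc1+/+ Veh cerebellum, with a list median of 0.72 (log2), and none was lower. Of all genes 5.91% were higher and 4.04% lower there. Their sum was 5141 to 6245 CPM in DIP, 4130 to 5938 CPM in Npc1-/- Veh and 3955 to 4562 CPM in Npc1+/+ Veh cerebellum. Of the 11 cerebellar markers 5 were lower and none higher in the same comparison, with a median of -0.60. Their sum was 3745 to 4613 CPM in DIP, 3728 to 4320 CPM in Npc1-/- Veh and 6573 to 7971 CPM in Npc1+/+ Veh cerebellum. Ctsd and Grn are also expressed by microglia, and the part of these cell types in the values was not tested.

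The genes that place the factors under mTORC1, 31 listed and 30 tested, gave 1 call of 30 for genotype in cerebellum, a smaller share than the 9.95% of all genes. It was Fnip2, a binding partner of folliculin, which averaged 26.1 ± 7.71 CPM in Npc1-/- Veh cerebellum and 16.7 ± 3.71 CPM in Npc1+/+ Veh cerebellum, and rose by 1.02 ± 0.25 (log2, SE, adjusted p 0.0121, edgeR). Without the library in doubt, 1 of 30 rose and 1 fell. In hippocampus 0 of 30 passed, with 1 at an unadjusted p under 0.05 and 0 by DESeq2. Fnip2 stood at 0.65 there (95% interval 0.18 to 1.12, adjusted p 0.209, edgeR). In DIP cerebellum against Npc1+/+ Veh, Rraga, a Rag GTPase, fell by 0.53 on the log2 scale and Castor1, an arginine sensor, rose by 1.06, where 14.4% of all genes passed. With the replicate block neither passed. In DIP hippocampus 0 of 30 passed, with 0 at an unadjusted p under 0.05 and 0 by DESeq2. For dipyridamole 0 of 30 passed in either tissue, with 1 at an unadjusted p under 0.05 in cerebellum, Fnip2 at -0.52 (interval -0.95 to -0.09), 0 in hippocampus and 0 by DESeq2 in both. In hippocampus the smallest p belonged to Lamtor4, a Ragulator subunit, at 0.21 (interval -0.05 to 0.46).

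A further list held 24 phosphatases, kinases, 14-3-3 proteins and lysosomal calcium channels that act on these factors, 21 of them tested. None of the 21 passed for genotype in cerebellum, with 1 at an unadjusted p under 0.05 and 1 by DESeq2, or in hippocampus, with 0 and 0. Pip4p1, a lysosomal phosphoinositide phosphatase, stood at 0.52 in Npc1-/- Veh over Npc1+/+ Veh cerebellum (95% interval 0.14 to 0.89, adjusted p 0.0761, edgeR). Mcoln1, the lysosomal calcium channel that activates calcineurin, stood at 0.36 in hippocampus (interval -0.03 to 0.75). For dipyridamole 0 of 21 passed in either tissue, with 0 at an unadjusted p under 0.05 and 0 by DESeq2, and 0 of 21 passed in DIP over Npc1+/+ Veh mice of either tissue, with 3 at an unadjusted p under 0.05 in each and 0 by DESeq2.

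Between the tissues of Npc1+/+ mice more of these upstream genes passed than for genotype, in a contrast where 43.1% of all genes passed. Of the 21, 3 were higher and 9 lower in cerebellum, among them Ppp3ca, the calcineurin catalytic subunit, at -1.48 ± 0.15, and its relative Ppp3cb at -0.96 ± 0.18 (log2, SE). Of the 30 mTORC1 genes 3 were higher and 2 lower, with Rptor, the raptor subunit of mTORC1, at 0.53 ± 0.12 and Fnip2 at 0.68 ± 0.17. Of the 44 CLEAR-type targets 7 were higher and 8 lower, with Lamp1, a lysosomal membrane glycoprotein, at 0.67 ± 0.15 and Gaa, the lysosomal alpha-glucosidase, at -0.76 ± 0.14. These shares stand beside 21.3% and 21.8% of all genes.

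Genes that MITF and TFE3 are known to switch on in osteoclasts and macrophages formed a list of 13, of which 9 were tested in cerebellum and 8 in hippocampus. In Npc1-/- Veh cerebellum 2 of 9 rose, Atp6v0d2 and Acp5, and none fell, where 5.91% of all genes rose. Both had so few counts in Npc1+/+ Veh cerebellum that they passed the filter on low counts only through the Npc1-/- groups. So did Atp6v0d2 in hippocampus. Genes of that kind can hardly be called other than higher, so these calls are a description and the shares are no test of them. Atp6v0d2, a proton pump subunit of osteoclasts and macrophages, averaged 10.9 ± 2.40 CPM in DIP cerebellum and 10.1 ± 2.34 CPM in Npc1-/- Veh cerebellum, against 3 counts in all 4 Npc1+/+ Veh cerebella. The ratio of summed counts, Npc1-/- Veh over Npc1+/+ Veh, was 126 with a counting interval of 42.7 to 616. In hippocampus it averaged 2.79 ± 0.80 CPM in DIP mice and 2.85 ± 0.81 CPM in Npc1-/- Veh mice, against 2 counts in all 4 Npc1+/+ Veh mice, and it was the 1 of 8 that rose, where 1.02% of all genes did. Acp5, the tartrate-resistant acid phosphatase, rose by 2.34 ± 0.67 (log2, SE) on 31 counts in Npc1-/- Veh and 12 counts in Npc1+/+ Veh cerebella.

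Atp6v0d2 did not differ with dipyridamole beyond counting error, with a ratio of summed counts, DIP over Npc1-/- Veh, of 1.11 (interval 0.942 to 1.30) in cerebellum and 0.929 (interval 0.678 to 1.28) in hippocampus. For dipyridamole 0 of 9 genes of the osteoclast and macrophage list passed in cerebellum, with 2 at an unadjusted p under 0.05, and 0 of 8 in hippocampus, with 0, and DESeq2 called 0 in each. Calcr, the calcitonin receptor, stood at 0.82 in DIP over Npc1-/- Veh cerebellum (95% interval 0.10 to 1.53). In DIP over Npc1+/+ Veh mice, 3 of 9 rose in cerebellum, Atp6v0d2, Acp5 and Calcr, or 1 of 9 with the replicate block, and 1 of 8, Atp6v0d2, rose in hippocampus. Of all genes 8.13% rose in that cerebellar comparison and 1.59% in the hippocampal one. The calls of Atp6v0d2 and Acp5 carry the same limit of the low-count filter here. Pigment cell targets of MITF were mostly under the filter, with 1 of 11 tested in cerebellum and 2 of 11 in hippocampus, and none passed for genotype or dipyridamole. Rab27a, a GTPase of melanosome transport, stood at 0.08 ± 0.18 in Npc1-/- Veh over Npc1+/+ Veh cerebellum (log2, SE).

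**Figure D5:**
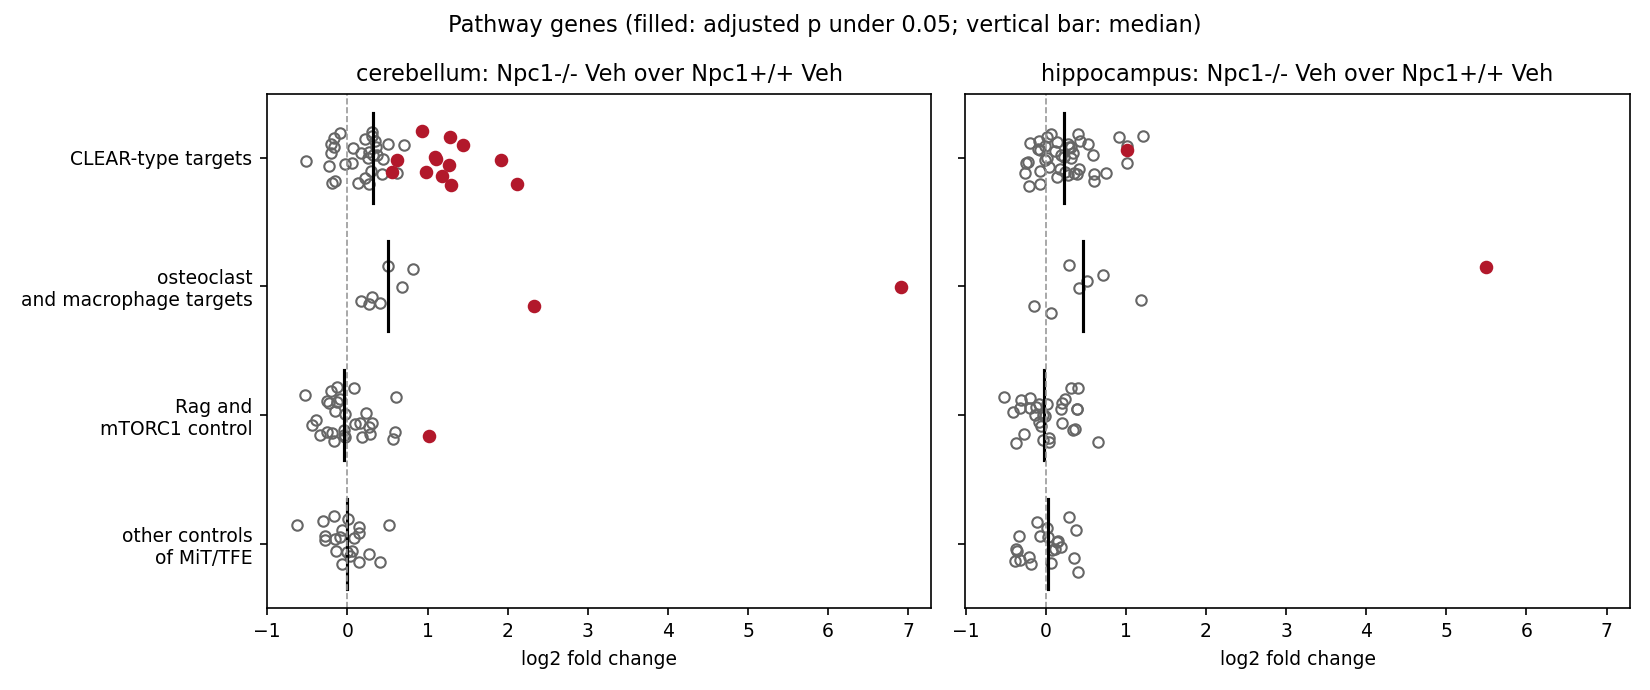
Log2 fold change of Npc1-/- Veh over Npc1+/+ Veh (horizontal) for the tested genes of 4 lists (rows), in cerebellum (left) and hippocampus (right); filled points passed the adjusted p of 0.05 and vertical bars are medians. In cerebellum 13 of 44 CLEAR-type targets passed, all higher, against 1 of 30 genes of Rag and mTORC1 control and 0 of 21 other controls; the farthest point is Atp6v0d2, a fitted fold on 3 counts in Npc1+/+ Veh.

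The genes whose pattern over the 24 libraries was most like that of a member were found by the root mean square difference of centred log2 CPM, among 13388 genes. For Gpnmb the nearest 5 were Lyz2 (1.06), Lgals3 (1.08), Clec7a (1.08), Clec4d (1.11) and Ctse (1.15). Lyz2, the lysozyme of myeloid cells, averaged 535 ± 68.6 CPM in DIP cerebellum, 490 ± 85.0 CPM in Npc1-/- Veh cerebellum and 17.5 ± 2.38 CPM in Npc1+/+ Veh cerebellum. Clec7a, a phagocyte receptor for beta-glucan, averaged 40.9 ± 4.34 CPM in DIP cerebellum, 43.8 ± 6.91 CPM in Npc1-/- Veh cerebellum and 0.803 ± 0.229 CPM in Npc1+/+ Veh cerebellum. The group means of Gpnmb spanned 7.60 log2 units. With a larger prior count of 2 in place of 0.5, 2 of these 5 stayed among the nearest 5, Lyz2 and Clec7a. Lgals3, Clec4d and Ctse, which left, were near the floor in Npc1+/+ mice. They held 5, 0 and 5 summed counts in Npc1+/+ cerebellum and 14, 1 and 5 in Npc1+/+ hippocampus, so their likeness depends on the prior count.

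Tfeb and Mitf, whose group means spanned 1.67 and 1.52 log2 units, had neighbours at smaller differences. The measure is not scaled to a gene's span, so these differences do not show a closer likeness than those of Gpnmb. The 5 nearest to Tfeb were Asb3 (0.181), Cgrrf1 (0.218), Cdyl2 (0.227), Faap20 (0.231) and Slc4a4 (0.231). Asb3 averaged 67.1 ± 3.07 CPM in DIP hippocampus and 58.2 ± 7.13 CPM in Npc1-/- Veh hippocampus, against 86.7 ± 8.55 CPM in Npc1+/+ Veh hippocampus, and was higher than that in every cerebellar group. The 5 nearest to Mitf were Cmtm5 (0.353), Fabp7 (0.359), March8 (0.363), Kif5b (0.366) and Nmral1 (0.366). Flcn and Tfe3 spanned less, 0.70 and 0.52 log2 units. The likeness is a description over libraries that share mice, depth and tissue.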

How the data were processed

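RNA of cerebellum and hippocampus from 12 mice was read with an Ion AmpliSeq mouse transcriptome panel on an Ion S5, per the labels' protocols. The deposited files hold raw counts per gene, made with featureCounts 2.0.3 on GENCODE annotation and without strand, per the file headers. FastQC 0.11.9, Trimmomatic 0.39 and STAR 2.7.9a are named in the submitters' processing notes. A panel reads 1 amplicon per gene, so an isoform or exon outside it is not counted.

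From the counts, CPM was computed with TMM scaling over the 24 libraries. Each tissue was fitted with edgeR 4.0.16 in R 4.3.3 (quasi-likelihood, robust, filterByExpr, sex as covariate), and the tissues were compared with the mouse as block and tissue-by-sex terms. P-values were adjusted by Benjamini-Hochberg over all genes tested, with a threshold of 0.05. Intervals are 95%. Exact binomial intervals of summed counts and the floor of 3 counts cover counting error only. Alternatives were DESeq2 1.42.0, other scaling, no low-count filter, no sex covariate, a replicate block and each mouse left out. Leaving out the libraries in doubt was chosen after seeing the data. Python 3.11.15, numpy 2.4.6, scipy 1.17.1, pandas 2.3.3 and matplotlib 3.10.9 were used, and the fits were tested on simulated data.

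The members and gene lists were chosen with earlier results of these data known. Named genes were the 6 members, for each list and comparison up to 4 genes past the threshold with the smallest p (up to 2 given as values where none passed), and the 5 nearest genes of members spanning at least 1 log2 unit. Ion barcodes went wholly with genotype, so barcode and genotype cannot be told apart. In Npc1-/- mice they also went by tissue, 117 to 124 in cerebellum and 124 to 131 in hippocampus, while in Npc1+/+ mice the tissues alternated. Tissue differences in Npc1-/- mice, and the genotype effect between tissues, share that limit. The same barcode is given for both tissues of DIP replicate 4. Replicate numbers mark different mice in the 3 groups. Promoter sequences are RefSeq GRCm38.p6, a build other than that of the counts. Protein sequences were not used here. Some genes that the naming rule selects are not reported here, and the counts of their lists include them.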

Additional observations from a re-analysis of the deposited data

Results flagged for a closer look

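Of 36 groups of 4 libraries checked with Dixon's test, 4 had a library apart from the others, and chance gives about 1 in 20. Tfe3 stood at 42.1 CPM, on 82 counts, in replicate 2 of Npc1-/- Veh cerebellum, the shallowest library. Mitf was lowest in replicate 2 of Npc1-/- DIP cerebellum, at 2.65 CPM on 17 counts. Tfec stood at 2.44 CPM, on 18 counts, in replicate 4 of Npc1-/- DIP hippocampus, the library whose summed hippocampal markers were 1024 CPM. Flcn was highest in replicate 1 of Npc1-/- DIP cerebellum, at 151 CPM.

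The genotype difference of Gpnmb was larger in cerebellum than in hippocampus by 4.06 on the log2 scale, by the interaction term of the fit over both tissues. That difference was known when the gene was picked.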

How the results depend on the processing

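Over 45 member results and 18 alternatives each, 810 values in all, 761 kept their direction and side of the threshold, 37 changed sign and 12 changed call; none of those that changed sign was called. The calls that changed were those of Mitf in DIP against Npc1+/+ hippocampus (10 alternatives), Tfeb for genotype in hippocampus without the sex covariate and Tfe3 between tissues without Npc1+/+ replicate 1. The causes were not tested.

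Counts of genes past the threshold moved with the covariates, the tool and single mice. Without sex, genotype called 2249 genes in cerebellum and 490 in hippocampus. With the replicate block, genotype called 613 in cerebellum and 55 in hippocampus, and DIP against Npc1+/+ called 1171 and 195. DESeq2 called 419 for genotype and 689 for DIP against Npc1+/+ in hippocampus. Without the libraries in doubt the last count was 144 by edgeR. Without the low-count filter dipyridamole called 13 genes in cerebellum, and without the tissue-by-sex term 386 genes differed in genotype effect between tissues. Same-numbered mice of different groups correlated from -0.340 to 0.512. Cerebellum and hippocampus of the same mouse correlated over a similar range, from -0.339 to 0.3895, so these correlations cannot tell pairs from other libraries. That replicate numbers pair no mice across groups rests on the animal numbers in the labels.

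With 1 mouse left out, counts ran from 474 (without Npc1-/- Veh replicate 3) to 1866 (without Npc1-/- Veh replicate 2) for genotype in cerebellum and from 31 (without Npc1-/- Veh replicate 3) to 238 in hippocampus. For DIP against Npc1+/+ they ran from 858 (without DIP replicate 4) to 2307 in cerebellum and from 130 (without DIP replicate 4) to 428 in hippocampus, and for the genotype effect between tissues from 27 (without Npc1-/- Veh replicate 3) to 227.

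Uncalled log2 values that changed sign reached 0.32, for Tfe3 and genotype in cerebellum. Tfe3 for dipyridamole in cerebellum was -0.011 by DESeq2 and -0.12 without sex, and Tfe3 without sex was 0.32 for genotype and 0.20 for DIP against Npc1+/+ there. With the replicate block, Mitf for dipyridamole in cerebellum was 0.023, Tfeb for DIP against Npc1+/+ cerebellum -0.010, Flcn for dipyridamole in hippocampus -0.015 and Tfe3 for DIP against Npc1+/+ hippocampus 0.028. Without the libraries in doubt, Gpnmb for dipyridamole in cerebellum was 0.077, Flcn in hippocampus -0.054 and Tfe3 for DIP against Npc1+/+ hippocampus 0.027. Gpnmb for dipyridamole in hippocampus was 0.066 without sex. Its dipyridamole effect between tissues was -0.21 without the tissue-by-sex term and -0.023 with no replicate block.

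Leaving out 1 mouse gave these log2 ranges. For dipyridamole in cerebellum, Flcn ran from -0.039 to 0.17, Gpnmb from -0.35 to 0.077, Mitf from -0.28 to 0.095 and Tfe3 from -0.15 to 0.36. In hippocampus Flcn ran from -0.050 to 0.082, and between tissues Flcn from -0.12 to 0.21 and Gpnmb from -0.086 to 0.20. For genotype in cerebellum, Flcn ran from -0.10 to 0.15 and Tfeb from -0.36 to 0.027. For DIP against Npc1+/+, Tfeb ran from -0.052 to 0.16 and Tfe3 from -0.29 to 0.00036 in cerebellum, and Tfe3 from -0.28 to 0.19 in hippocampus. Depth limits Tfec, at 0 to 18 counts, and Gpnmb in Npc1+/+ cerebellum, at 13 counts in all.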

Other observations

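Per 1000 CPM of summed oligodendrocyte markers, Tfeb had a median of 14.6 CPM in Npc1-/- DIP hippocampus, 8.004 CPM in Npc1-/- Veh hippocampus and 3.30 CPM in Npc1+/+ Veh hippocampus. The DIP range, 8.64 to 21.0, overlapped that of Npc1-/- Veh, 6.20 to 10.5. The divisor differed, with median sums of 1123, 1361 and 5310 CPM, while Tfeb itself averaged 13.8, 10.8 and 17.2 CPM. In cerebellum the medians per 1000 CPM were 3.86, 3.41 and 5.47 CPM in the same groups. Tfeb per cell was not measured. Dct, an enzyme of melanin synthesis, stood at 2.32 ± 0.72 (log2, SE) in Npc1-/- Veh over Npc1+/+ Veh hippocampus and did not pass the threshold.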
